A study of Mus musculus with 6 samples.

Results

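Metalloproteases cut the proteins of the extracellular matrix and of the cell surface, and the tissue inhibitors of metalloproteinases (TIMPs) block them. In mouse pulmonary arterial smooth muscle cell (PASMC) cultures, 64 protein-coding genes of the table belonged to these families, of 21785 gene rows in all. They were chosen by symbol alone, taking every protein-coding row named Mmp, Adam or Timp followed by a digit, or Adamts. This gave 18 matrix metalloproteases (MMP), 19 ADAM genes, 18 ADAMTS genes, 5 ADAMTS-like genes (ADAMTSL) and 4 TIMPs. GENCODE M21 lists 83 protein-coding genes of these names in the mouse, and no row of the table matched the others. Every row of the table reaches at least 3 in some library. Mmp1a matched the name but is annotated as a polymorphic pseudogene and was left out.

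MMPs are secreted or membrane-bound enzymes that degrade collagens and other matrix proteins. ADAMs are mostly membrane-bound, and the active ones release growth factors and receptors from the cell surface. ADAMTS enzymes are secreted and cut proteoglycans, procollagens and microfibril proteins, while ADAMTSL proteins resemble them but lack the protease domain. In the pulmonary artery wall these genes are known for their part in matrix turnover and vessel remodelling, and bone morphogenetic proteins (BMPs) are regulators of the same cells.

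The cells were cultured from lungs of C57BL/6 mice after the arteries had been filled with iron particles and collected with a magnet. All samples were kept for 48 h in medium without supplements. The 3 stimulated samples then received BMP9 at 1 ng/mL together with BMP10 at 5 ng/mL for 6 h, and the 3 control samples received neither, so the ligands cannot be told apart. The labels name no sex, age or passage, and nothing in them says that each sample is its own animal or culture, so p-values measure the spread between these samples only.

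Levels are normalized read counts as deposited. Changes are stimulated minus control on the log2(value + 1) scale ± SE, from limma fitted over 21743 genes, with p-values adjusted over all of them by the Benjamini-Hochberg method and a threshold of 0.05. The values sum to between 27295973 and 31903795 per library, and the reads behind them were estimated at 23300000 to 54400000, the highest being stimulated replicate 3. Libraries with the same replicate number were taken as pairs, a reading from the data since no label explains the numbers. Deviations from the group means correlated at 0.747, 0.741 and 0.218 for numbers 1, 2 and 3. The pairing is least sure for number 3, as control 3 correlated more with stimulated 1 (0.287). A second fit with the replicate number as a block is given where it changes a call, and its calls rest on this pairing. Smooth muscle markers were present in every library (8 of 8 listed genes, summed levels 34382 to 53248 in controls and 83819 to 178986 after stimulation). Of these, 4 rose: Acta2 (1.76), Tagln (1.61), Cnn1 (1.57) and Lmod1 (0.74), with limma adjusted p from 0.0121 to 0.0228. Acta2 made up most of the stimulated sums, at 69094 to 153164. Myh11, Smtn and Myocd lay higher and Des lower (-0.43) without passing. RNA of genes listed as markers of other cells was also present. The 7 fibroblast markers had the highest sum, 293349 to 400383 in controls and 253814 to 454994 after stimulation, and 1 of them, Pdgfra, fell (-1.29, limma adjusted p = 0.00639). Most of this sum came from the collagen genes Col1a2 and Col1a1 (146007 and 120701 of 293349 in control replicate 1). Lum, Dpt and Tcf21 were at 963 or less in every library, so these sums do not rank the cell types by amount. The 5 pericyte markers summed to 3150 to 5838 and 7088 to 10365, and 1 of them, Cspg4, rose (1.77, limma adjusted p = 0.000832). Cspg4 carried the rise of the sum, at 1752 to 2192 in controls and 5679 to 7527 after stimulation. Kcnj8 (-0.99) and Abcc9 (-0.33) lay lower and Notch3 (0.27) and Rgs5 (0.62) higher, and none of these passed. The part of these cells in the members' values was not tested. The 9 macrophage markers summed to 93954 to 161860 in controls and 140103 to 210106 in stimulated libraries, and none of them passed the test. Lyz2 made up most of each sum, at 81014 to 138253 in controls and 123461 to 179899 after stimulation. The 11 endothelial markers summed to 11766 to 43744 in controls and 9632 to 42925 in stimulated libraries, and all 11 were highest in replicate 2 of both groups. The 3 neutrophil markers in the table summed to 132 to 567 and 99 to 273. In such bulk cultures, fewer cells of a type and less RNA per cell cannot be told apart.

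Of the 64 members, 14 passed the test with limma, 8 of them higher and 6 lower after stimulation, a share of 21.9% against 13.4% of all genes tested (8.61% higher and 4.75% lower). Among protein-coding genes, which all members are, 16.9% passed (11.2% higher and 5.75% lower). Among the 50 members with a mean of at least 50, all 14 are found, a share of 28%, against 20% of all genes at that level. The groups did not overlap for 17 members, a share of 26.6% against 33.2% of all genes and 38.4% of protein-coding genes. The median log2 change was -0.14 over the members and -0.03 over all genes, and calls went both ways. By subfamily, both calls among the TIMPs and both among the ADAMTSL genes were rises, 4 of 6 calls among ADAMTS genes were falls, and 1 of 18 MMPs passed. With the replicate block 24 members passed, 13 higher and 11 lower, and these include all 14. That is a share of 37.5%, against 26.8% of all genes and 34.1% of protein-coding genes in that fit.

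**Figure D1:**
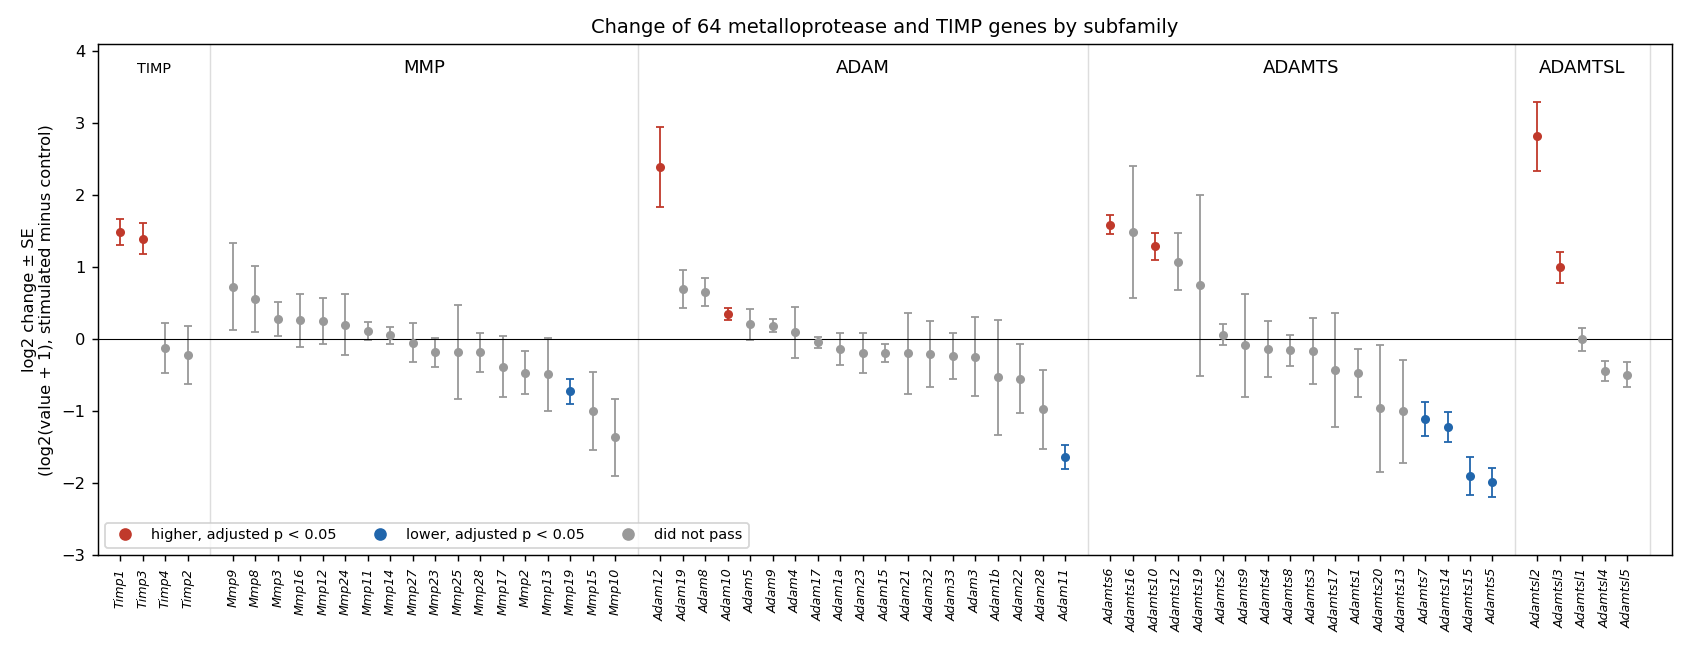
Log2 change ± SE (limma, log2(value + 1), stimulated minus control) of each of the 64 members, ordered by size within its subfamily; red and blue points passed at an adjusted p under 0.05. Timp1 and Timp3 stand above the other TIMPs, a single MMP is coloured, and the ADAMTS genes reach from 1.59 for Adamts6 to -1.99 for Adamts5.

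Of the 4 inhibitors, 2 rose and 2 did not pass (50% called, against 13.4% of all genes and 16.9% of protein-coding genes). Timp1, which encodes a secreted inhibitor of most MMPs, lies on the X chromosome (mm10, 20870166 to 20874735). It was at 9485, 5690 and 8201 in control replicates 1, 2 and 3 and at 22868, 19813 and 21668 in the stimulated ones. Every stimulated library was above every control, and the change was 1.49 ± 0.18 (limma adjusted p = 0.00396), a 2.75-fold ratio of means. Timp3 encodes the TIMP that binds to the matrix and also inhibits ADAM and ADAMTS enzymes. On chromosome 10 (86300372 to 86349506), it stood at 57982, 38048 and 63318 in controls and 153003, 112135 and 148762 after stimulation. Again the groups did not overlap, and replicate 2 was the lowest library of each group for Timp1 as for Timp3. The Timp3 change was 1.40 ± 0.21 (limma adjusted p = 0.0083, and 0.0535 without stimulated replicate 3). Annotated exons in antisense overlap 21.3% of its exonic bases, so its level is less certain if the counting ignored strand.

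Timp2, which inhibits MMPs and takes part in activating pro-MMP2 with MMP14, did not pass. It was at 86448, 35673 and 83119 in controls and 69605, 35598 and 65690 after stimulation, with overlapping groups and replicate 2 far below the others in each. Its change was -0.22 ± 0.40 (limma adjusted p = 0.767, and 0.123 with the block), with pair values of -0.31, 0.00 and -0.34. Equal library totals together with the block called it lower (-0.39, limma adjusted p = 0.00687). Timp4 was near the bottom of the table, between 20 and 40 in every library (-0.12 ± 0.35, limma adjusted p = 0.858).

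Per kilobase of exon, the order of the TIMP genes turned over. In controls Timp2 had the highest level, at 17560 ± 7290 normalized reads per kb (SD, n = 3), ahead of Timp1 at 8775 ± 2174 and Timp3 at 6522 ± 1635. Timp1 and Timp3 lie within their spread of each other. After stimulation Timp1 was at 24155 ± 1733, Timp3 at 16941 ± 2759 and Timp2 at 14621 ± 4776, and the last pair lie within their spread. Within each library, the ratio of Timp1 to Timp2 per length was 0.481, 0.7 and 0.433 in controls and 1.44, 2.44 and 1.45 after stimulation. The ratio of Timp3 to Timp2 was 0.321, 0.51 and 0.364 in controls and 1.05, 1.51 and 1.08 after stimulation. So in each of the 3 control libraries Timp2 was the most abundant TIMP transcript by this measure, and in each of the 3 stimulated ones Timp1 was. This order depends on the exonic lengths used, 888 bases for Timp1, 3896 for Timp2 and 8144 for Timp3. Without division by length, Timp2 and Timp3 were each above Timp1 in every library. The rise of both ratios does not depend on these lengths.

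Summed over the subfamily per length, TIMP transcripts were at 39995, 20240 and 38351 normalized reads per kb in controls and 62409, 45225 and 59533 after stimulation. MMP transcripts were at 23110, 27537 and 27775 in controls and 23350, 25806 and 25284 after stimulation. The TIMP sum did not overlap between the groups, whereas the MMP sum did. The ratio of the TIMP to the MMP sum was 1.73, 0.735 and 1.38 in controls and 2.67, 1.75 and 2.35 after stimulation. Its groups do not overlap, but control replicate 1 and stimulated replicate 2 nearly meet. A ratio within a library does not depend on the scaling between libraries. These sums are of RNA and say nothing of protein or of enzyme activity.

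**Figure D2:**
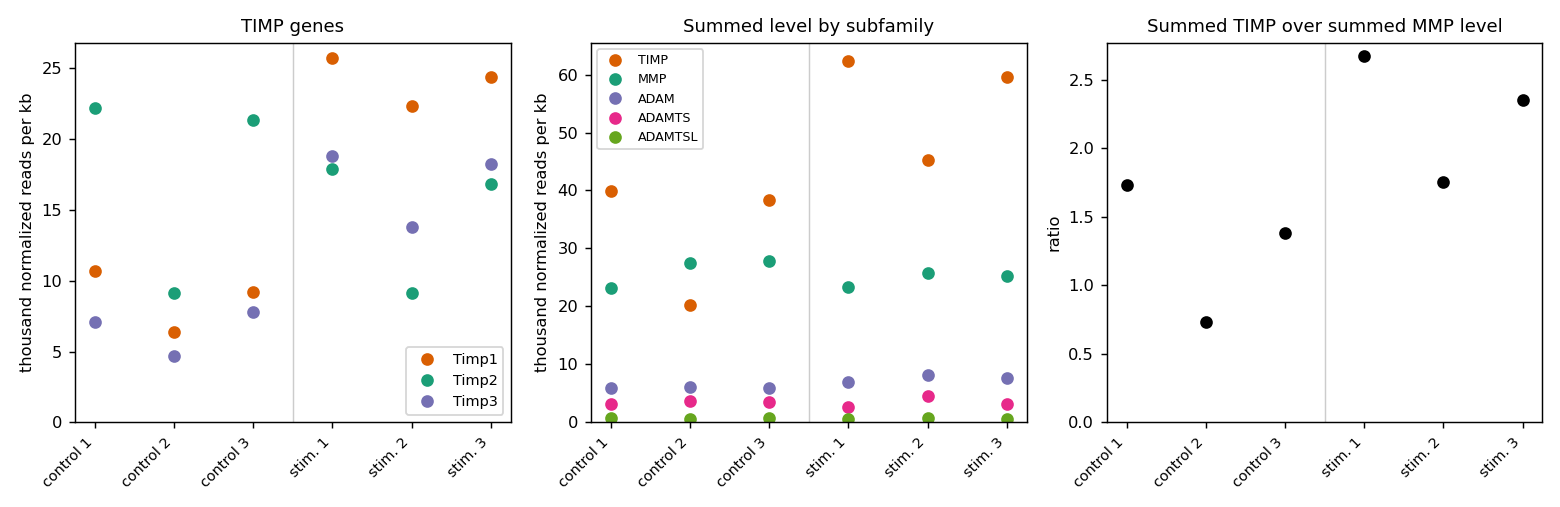
Left, level per kb of exon (in units of 1000 normalized reads) of Timp1, Timp2 and Timp3 in each of the 6 libraries; middle, the sum over each subfamily; right, the ratio of the TIMP sum to the MMP sum. Timp1 lies below Timp2 in each control and above it in each stimulated library, and the ratio on the right runs from 0.735 to 1.73 in controls and from 1.75 to 2.67 after stimulation.

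The MMPs had the lowest share of calls of the 5 subfamilies in the unpaired fit, but not with the block. Of 18 genes, 1 fell and 17 did not pass in the main fit (5.56% called, against 13.4% of all genes and 16.9% of protein-coding genes). No MMP other than the one that fell had groups without overlap. That gene was Mmp19, a secreted MMP of blood vessels and other tissues. It was at 2970, 2084 and 3084 in controls and 1856, 1372 and 1663 after stimulation, so every stimulated library was below every control. The change was -0.72 ± 0.18 (limma adjusted p = 0.0413). The call held without control replicate 2 and was lost without each other library, at 0.138 (control 1), 0.14 (control 3), 0.0549 (stimulated 1), 0.0983 (stimulated 2) and 0.131 (stimulated 3). With the block 6 MMPs passed, 2 higher and 4 lower (33.3%, against 26.8% of all genes and 34.1% of protein-coding genes). Without both replicate 2 libraries 4 did. With the block and all libraries Mmp19 passed (limma adjusted p = 0.00126). Opposite-strand exons cover 28.3% of its exonic bases.

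The 3 MMPs of highest level per length over all 6 libraries did not pass unpaired (in controls Mmp3 lay above Mmp8, at 3184 against 2926 reads per kb). Mmp2, the gelatinase that cuts denatured and basement membrane collagen, was at 32622, 16836 and 32496 in controls and 20831, 13951 and 23494 after stimulation. Within each numbered pair the stimulated library was lower, by 0.65, 0.27 and 0.47 on the log2 scale in size, but replicate 2 was so low in controls that the groups overlap. The change of -0.46 ± 0.30 did not pass the unpaired fit (limma adjusted p = 0.369) and passed with the block (0.00927). It ranged from -0.24 without stimulated replicate 2 to -0.78 without control replicate 2. Mmp14, the membrane-type MMP that activates pro-MMP2, was among them, at 25278, 28784 and 26754 in controls and 24480, 32518 and 27419 after stimulation (0.06 ± 0.12, limma adjusted p = 0.807). Mmp8, a collagenase best known from neutrophils, was at 3749, 10882 and 6659 in controls and 5715, 15492 and 9806 after stimulation. The stimulated library was higher in each pair by a similar amount (0.61, 0.51 and 0.56), and the change of 0.56 ± 0.46 passed with the block only (limma adjusted p = 0.485, and 0.00122 with the block). Unpaired, it ranged from 0.16 without control replicate 1 to 0.93 without control replicate 2. The neutrophil marker genes S100a8 and Csf3r were at 196 or less in every library, and S100a9 at 0, 330 and 15 in controls and 0, 1 and 0 after stimulation. Their part in the Mmp8 values was not tested.

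Among the remaining MMPs, the replicate block added 3 calls. Mmp10, a stromelysin, was at 863, 3345 and 2669 in controls and 571, 1251 and 639 after stimulation (-1.36 ± 0.53, limma adjusted p = 0.146, and 0.00831 with the block). Without control replicate 1 it passed unpaired (0.0353). Mmp15, another membrane-type MMP, was at 423, 1136 and 383 against 151, 486 and 315 (limma adjusted p = 0.276, and 0.0181 with the block). Mmp9, the other gelatinase, was at 65, 337 and 167 against 173, 438 and 223 (limma adjusted p = 0.486, and 0.049 with the block). For all 3 the replicate 2 library was the highest of its group. The macrophage elastase gene Mmp12 was at 8399, 20316 and 9432 against 12427, 16475 and 13283 (limma adjusted p = 0.662), and the stromelysin gene Mmp3 at 4185, 6166 and 6854 against 8828, 5419 and 6669 (0.481). At the low end Mmp24 and Mmp25 did not exceed 21 in any library.

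Of the 18 ADAMTS genes, 2 rose and 4 fell (33.3% called, against 13.4% of all genes and 16.9% of protein-coding genes). Among the 7 genes of the proteoglycanase group, whose enzymes cut versican and aggrecan, 2 fell, none rose and 5 did not pass. Adamts5, an aggrecanase gene on chromosome 16 (85856173 to 85901828), was at 3021, 1994 and 3239 in controls and 774, 586 and 691 after stimulation. Every stimulated library held well under the lowest control, and the change was -1.99 ± 0.20 (limma adjusted p = 0.00208). Adamts15, a versican-cutting relative, went from 1587, 2942 and 2410 to 743, 628 and 464, also without overlap (-1.90 ± 0.26, limma adjusted p = 0.00579). Leaving out any single library kept both calls (adjusted p up to 0.0202 and 0.0358).

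The other proteoglycanase genes differed from this. Adamts1 was at 3869, 3584 and 4445 in controls and 1755, 4881 and 2715 after stimulation, so replicate 2 moved against the others (-0.47 ± 0.34, limma adjusted p = 0.414). Adamts4 was at 1098, 2142 and 1335 against 831, 2270 and 1268, and Adamts9 at 278, 1102 and 484 against 210, 1262 and 468. In these genes the distance between replicates was larger than any between the groups (limma adjusted p = 0.865 and 0.955). Adamts8 changed by -0.15 ± 0.21 (adjusted p = 0.68), and Adamts20 was at 10 or less.

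Of the 3 procollagen N-proteinase genes, whose enzymes trim fibrillar procollagens, Adamts14 fell, from 799, 477 and 710 to 278, 318 and 241 (-1.22 ± 0.21, limma adjusted p = 0.013). The groups did not overlap, and the fall was smallest in pair 2, at -0.58 against -1.52 and -1.55. Leaving out control 1 (0.0522), control 3 (0.0626) or stimulated 3 (0.0699) ended the call, and the block kept it (0.00551). Adamts2, the most abundant ADAMTS transcript per length, was at 8590, 9127 and 9207 against 7826, 11801 and 8920 (0.06 ± 0.15, limma adjusted p = 0.823). Adamts3 lay between 35 and 116.

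Adamts6 and Adamts10, a closely related pair whose enzymes act on fibrillin microfibrils, rose. Adamts6, on chromosome 13 (104287835 to 104496695), went from 791, 701 and 932 to 2305, 2258 and 2715. Each stimulated value was over the highest control, and the pairs were nearly alike at 1.54, 1.69 and 1.54. The change of 1.59 ± 0.13 had the smallest adjusted p among the members (limma, 0.00105). Adamts10 went from 1536, 2296 and 1766 to 3867, 5476 and 4307 (1.29 ± 0.18, limma adjusted p = 0.00654), with pair values of 1.33, 1.25 and 1.29. Both calls were kept when any single library was left out (adjusted p up to 0.012 and 0.0416). The ratio of Adamts6 to Adamts5 per length was 0.362, 0.486 and 0.398 in controls and 4.12, 5.33 and 5.44 after stimulation. The ratio of Adamts10 to Adamts5 was 0.665, 1.51 and 0.713 and then 6.53, 12.2 and 8.15.

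Adamts7 and Adamts12, a second related pair known for cutting cartilage oligomeric matrix protein, parted. Adamts7, which is known from vascular smooth muscle, was at 624, 1052 and 685 in controls and 295, 455 and 334 after stimulation, with no overlap. Its change was -1.11 ± 0.24 (limma adjusted p = 0.0271, and 0.000416 with the block). Leaving out control 1 (0.0523), control 3 (0.0757), stimulated 1 (0.0742) or stimulated 3 (0.114) ended the unpaired call. Adamts12 was at 1215, 2641 and 1586 against 2423, 6150 and 3217. The groups overlap because control replicate 2 exceeds stimulated replicate 1, but the pairs differed by 1.00, 1.22 and 1.02. The change of 1.08 ± 0.39 did not pass the unpaired fit (limma adjusted p = 0.124) and passed with the block (0.000233). The ratio of Adamts12 to Adamts7 per length was 1.12, 1.44 and 1.33 in controls and 4.72, 7.77 and 5.54 after stimulation. The remaining Adamts13, Adamts16, Adamts17 and Adamts19 did not exceed 70 in any library, and the last of these was at 0 in replicate 1 of both groups.

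Among the ADAMTSL genes, whose proteins sit on fibrillin microfibrils, 2 of 5 rose (40% called, against 13.4% of all genes and 16.9% of protein-coding genes). Adamtsl2 encodes a protein that binds the latent TGF-beta binding protein LTBP1. On chromosome 2 (27079379 to 27108981), it went from 134, 87 and 173 in controls to 513, 1852 and 761. The groups did not overlap, and the log2 change was 2.82 ± 0.48 (limma adjusted p = 0.0118). It was the largest of any member with all libraries, but without control replicate 2 (2.55 against 2.98) or without both replicate 2 libraries (2.03 against 2.69) that of Adam12 was larger. Stimulated replicate 2 was far above the others although control replicate 2 was the lowest control, so the pairs differed by 1.93, 4.40 and 2.13. The call was lost without stimulated replicate 3 (2.94, adjusted p = 0.0557). Adamtsl3 went from 260, 275 and 326 to 438, 559 and 763 (1.00 ± 0.21, limma adjusted p = 0.0252, and 0.00169 with the block). Of its leave-one-out fits without the block, the one without stimulated replicate 1 passed and the other 5 did not (adjusted p from 0.0601 to 0.0929), nor did the fit without both replicate 2 libraries (0.115).

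Adamtsl4 and Adamtsl5 lay lower after stimulation without passing the main fit. Adamtsl4 was at 746, 642 and 721 against 456, 615 and 493, with no overlap (-0.44 ± 0.14, limma adjusted p = 0.084). Adamtsl5 was at 2198, 1788 and 2316 against 1813, 1211 and 1499, and the groups just overlap (-0.49 ± 0.17, limma adjusted p = 0.106, and 0.00784 with the block). With equal library totals in place of the deposited scaling, both passed limma (adjusted p = 0.0239 and 0.0433). Adamtsl1 lay between 288 and 403 in all libraries.

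**Figure D3:**
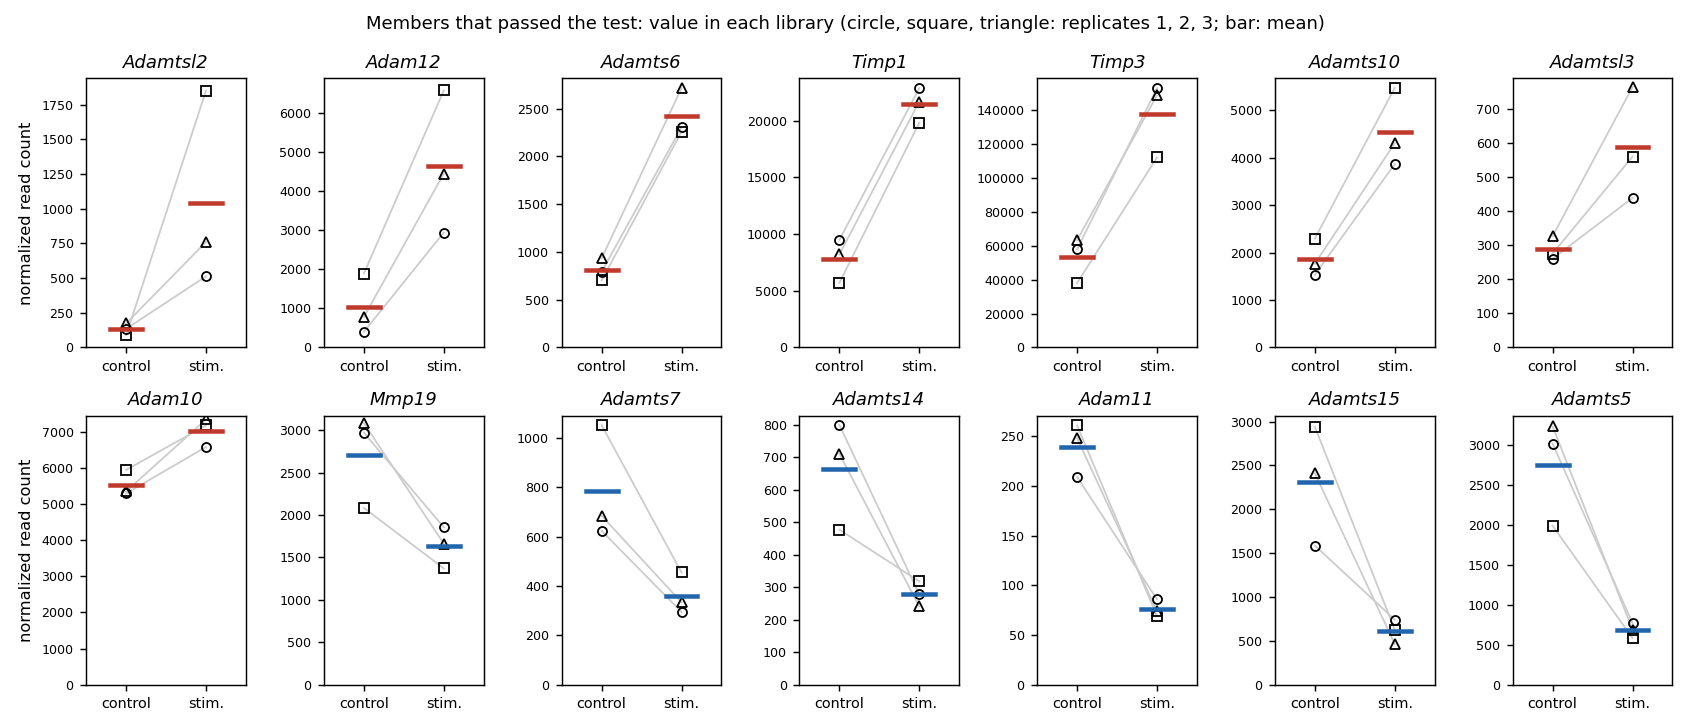
Normalized read count in each library of the 14 members that passed, ordered by log2 change; grey lines join libraries with the same replicate number, coloured bars are group means, and each vertical axis starts at 0. In every panel the groups are separate, while the stimulated libraries of Adamtsl2 spread from 513 to 1852.

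Among the 19 ADAM genes, 2 rose, 1 fell and 16 did not pass. This share of 15.8% was near the 13.4% of all genes and the 16.9% of protein-coding genes. Adam12 encodes a metalloprotease of growing mesenchyme that sheds growth factors, and lies on chromosome 7 (133883199 to 134232146). It went from 400, 1890 and 779 in controls to 2939, 6572 and 4446. The highest control, replicate 2, was still below the lowest stimulated library. The change was 2.39 ± 0.55 (limma adjusted p = 0.0332), with pair values of 2.87, 1.80 and 2.51. The unpaired call held without control 2 and was lost without control 1 (0.0777), control 3 (0.112), stimulated 1 (0.0505), stimulated 2 (0.0883) or stimulated 3 (0.122). With the block and all libraries the adjusted p was 0.000401. Adam19, its close relative, was at 5446, 8289 and 6402 against 7645, 15609 and 10397, higher in each pair by 0.49, 0.91 and 0.70. It did not pass unpaired (0.70 ± 0.27, limma adjusted p = 0.139) and passed with the block (0.00229).

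Of the sheddases found in most cells, Adam10 passed and Adam17 did not. Adam10, which cuts Notch receptors and cadherins, was at 5292, 5943 and 5349 against 6579, 7174 and 7338. Its change of 0.35 ± 0.08 passed (limma adjusted p = 0.0373) and was lost with equal library totals (0.17, adjusted p = 0.206), with upper-quartile factors (0.27, 0.0663), without both replicate 2 libraries (0.0513) and without any single library other than control replicate 2 or stimulated replicate 1 (0.0854 to 0.144). Adam17, the main sheddase of TNF and of EGF receptor ligands, was at 3497, 3570 and 3497 against 3349, 3271 and 3675 (-0.04 ± 0.08, limma adjusted p = 0.786). Adam9, the most abundant ADAM transcript per length, was at 8518, 7526 and 8907 against 9426, 9072 and 9932 (0.19 ± 0.09, limma adjusted p = 0.209). Adam8, which is expressed in macrophages and other leukocytes, was at 1758, 1758 and 1190 against 2869, 2025 and 2509 (limma adjusted p = 0.0662, and 0.0211 with the block). The macrophage marker sums given above ran higher in stimulated replicates 1 and 3 too, at 210106 and 186187 against 140103 in stimulated replicate 2. Most of these sums was Lyz2, at 179899, 162472 and 123461 in that order. Csf1r, Adgre1, Ptprc, Cd68 and C1qa were also lowest in stimulated replicate 2. Mrc1 and Marco were instead highest there among stimulated libraries (3157 and 1370), and Cd14 was not lower there. The part of macrophages in the Adam8 values was not tested.

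Adam11, which belongs to the ADAMs without a working protease site and is best known from neurons, fell from 209, 261 and 248 to 86, 69 and 74 (-1.64 ± 0.17, limma adjusted p = 0.00217). The groups were far apart, and the call was kept without any single library (adjusted p up to 0.021). Its catalytically inactive relatives were less clear. Adam22 was at 411, 184 and 337 against 331, 101 and 244, lower in each pair but overlapping (-0.54 ± 0.48, limma adjusted p = 0.511, and 0.0295 with the block). Unpaired, it ranged from -0.05 without stimulated replicate 2 to -0.90 without stimulated replicate 1. Adam23 was at 2721, 1417 and 3096 against 2231, 1778 and 2040 (limma adjusted p = 0.716). The ADAMs best known from testis (Adam1a, Adam1b, Adam3, Adam4, Adam5, Adam21 and Adam32) lay between 0 and 106 and none passed. Adam1a and Adam1b are near-identical copies in part, so reads may be split between them.

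**Figure D4:**
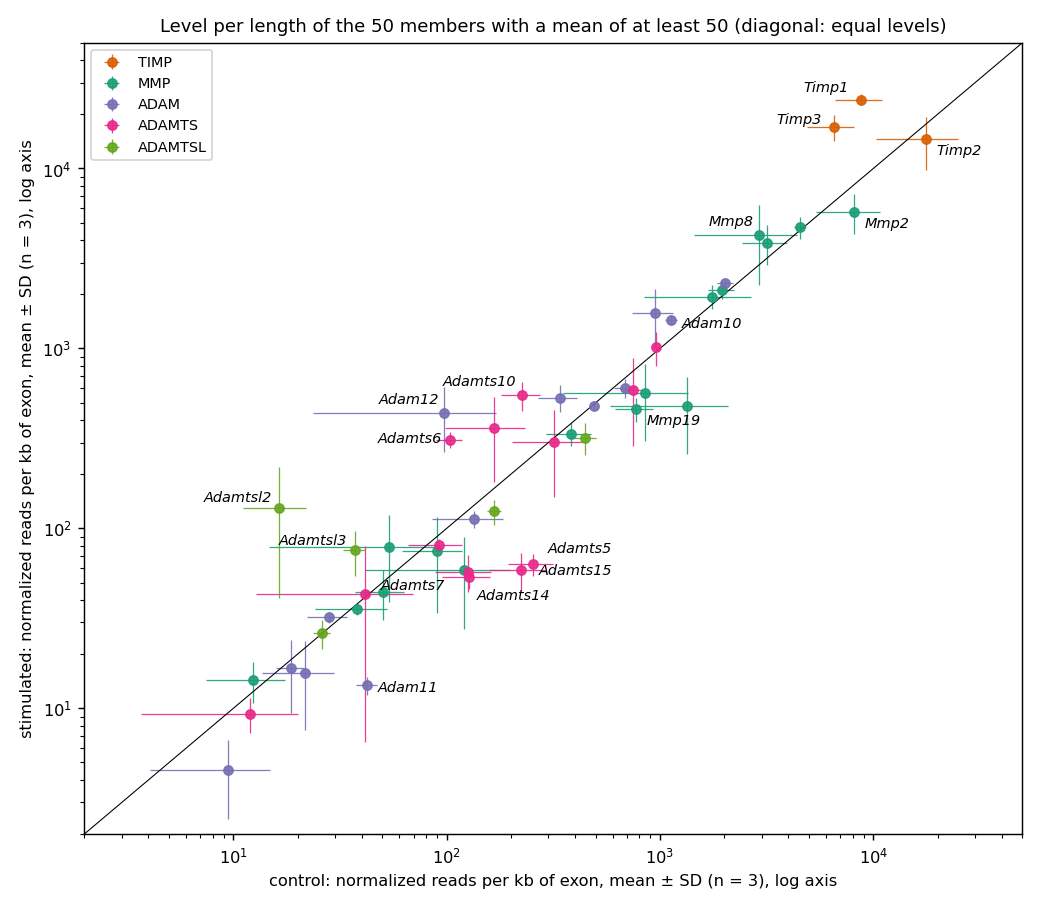
Level per kb of exon in control (horizontal) and stimulated (vertical) libraries, mean ± SD (n = 3), both axes logarithmic, for the 50 members with a mean of at least 50. Timp1 and Timp3 lie above the diagonal at the top end and Timp2 on it within its spread, while Adamts5, Adamts7, Adamts14 and Adamts15 lie below it, Adamts5 at 255 reads per kb in controls and 63.4 after stimulation.

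Promoter sequence is shown for called members with an entry in the RefSeq promoter table (GRCm38.p6), to let a reader compare the genes that moved: both TIMPs, the ADAMTSL gene with the larger rise and, of the 4 ADAMTS genes that fell, the one with an entry. Of the 64 members 40 have an entry, and of the 14 called ones 6. Each line gives the 250 bases before the RefSeq start in that table, 5′ to 3′ on the gene's strand, in lower case. For Timp3 and Adamts14 this start lies inside the GENCODE gene, so the end of the window overlaps it. Capitals mark matches on either strand to GGCGCC, the GC-rich site of BMP-activated SMAD1 and SMAD5, to CAGAC, the shorter SMAD box, and to TGAGTNA, the AP-1 site.
Timp1 (chrX:20869916-20870165, plus strand): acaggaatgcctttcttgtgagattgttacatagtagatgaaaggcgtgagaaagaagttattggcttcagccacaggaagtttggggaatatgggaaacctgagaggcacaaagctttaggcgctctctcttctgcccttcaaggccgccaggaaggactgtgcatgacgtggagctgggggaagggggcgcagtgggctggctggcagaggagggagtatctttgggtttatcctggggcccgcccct
Timp3 (chr10:86300162-86300411, plus strand): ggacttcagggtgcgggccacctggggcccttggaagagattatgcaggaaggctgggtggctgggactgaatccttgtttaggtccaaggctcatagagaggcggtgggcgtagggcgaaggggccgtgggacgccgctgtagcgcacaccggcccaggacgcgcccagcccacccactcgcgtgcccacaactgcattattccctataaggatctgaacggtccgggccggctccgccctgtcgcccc
Adamtsl2 (chr2:27079129-27079378, plus strand): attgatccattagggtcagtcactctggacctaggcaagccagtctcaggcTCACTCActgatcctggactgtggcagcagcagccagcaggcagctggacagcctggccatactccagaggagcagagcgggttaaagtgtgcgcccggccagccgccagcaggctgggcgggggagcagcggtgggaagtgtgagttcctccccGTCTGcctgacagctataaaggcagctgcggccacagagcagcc
Adamts14 (chr10:61273420-61273669, minus strand): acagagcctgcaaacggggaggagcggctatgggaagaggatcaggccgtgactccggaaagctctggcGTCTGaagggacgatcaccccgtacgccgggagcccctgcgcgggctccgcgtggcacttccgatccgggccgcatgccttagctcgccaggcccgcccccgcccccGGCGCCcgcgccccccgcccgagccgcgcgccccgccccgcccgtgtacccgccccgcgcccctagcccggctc
Neither TIMP promoter holds any of the 3 motifs in this window. That of Adamtsl2 holds the AP-1 letters at -199 and the SMAD box at -44 from that start. That of Adamts14 holds the GC-rich site at -74 and the SMAD box at -181. Over all 32851 promoters of the table, 9.59% hold GGCGCC, 42.2% hold CAGAC and 12.3% hold TGAGTNA in the same 250 bases. Over the 44 promoters of members the shares were 20.5%, 43.2% and 15.9%. Neither Adam10 nor Adamtsl3, the other called members with an entry, holds any of the 3. A match is a run of letters and not evidence of binding.

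Genes that act on these enzymes were read from lists of known partners, and their counts stand against the 13.4% of all genes that passed (20% of those with a mean of at least 50). With the block 26.8% of all genes passed. Among protein-coding genes, 16.9% passed the main fit and 34.1% the fit with the block. Of 8 proprotein convertase and plasminogen activation genes in the table, 2 rose and none fell (25% called). With the block 3 were higher and 1 lower, Plaur, the urokinase receptor gene, being added at 0.92 (limma adjusted p = 0.0661, and 0.0004 with the block) and Plat, the tissue plasminogen activator gene, at -0.40 (0.445 and 0.0242). Furin and Pcsk5 encode convertases that activate pro-ADAMs, pro-ADAMTS enzymes and membrane-type MMPs. Furin was at 5348 ± 947 in controls and 8717 ± 737 after stimulation (SD, n = 3; 0.72 ± 0.14), and Pcsk5 at 426 ± 131 and 1875 ± 234 (2.17 ± 0.21). Among other inhibitors and clearance genes, Tfpi2, a Kunitz-type inhibitor of plasmin and other proteases, rose from 532 ± 151 to 2279 ± 845 (2.07 ± 0.31, limma adjusted p = 0.00802). Reck, a membrane-anchored MMP inhibitor, changed by -0.26, and Lrp1, the receptor that clears TIMP3 and ADAMTS5 among others, by 0.01, and neither passed (with the block Reck did, adjusted p = 0.0437).

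Of 9 partners of ADAM10 and ADAM17, none rose and 2 fell (22.2% called). With the block 5 were lower, the tetraspanin genes Tspan17 (limma adjusted p = 0.00845 with the block), Tspan15 (0.03) and Tspan33 (0.0358) being added. Tspan5, a tetraspanin that carries ADAM10, went from 3209 ± 966 to 1355 ± 167 (-1.20 ± 0.23) and Frmd8, which stabilises the iRhom and ADAM17 complex, from 2875 ± 147 to 2178 ± 35.4 (-0.40 ± 0.08). Of 20 membrane proteins known to be shed by ADAMs, 8 rose and 2 fell (50% called). With the block 10 were higher and 3 lower, with Sdc4 (limma adjusted p = 0.0343 with the block), Tnf (0.0493) and Notch2 (0.0285, lower) added. By smallest p these were led by the growth factor gene Hbegf (4.31 ± 0.17), the Notch ligand gene Jag1 (3.27 ± 0.24), Cd44 (0.93 ± 0.09), the chemokine genes Cx3cl1 (1.06 ± 0.13) and Cxcl16 (1.07 ± 0.21), and the receptor gene Il6ra, which fell (-0.81 ± 0.13). Of 4 astacin metalloprotease genes 1 rose, Tll1, a relative of the procollagen C-proteinase, from 469 ± 99.6 to 1544 ± 663. Of 5 proteoglycans cut by ADAMTS enzymes 1 rose, Vcan, the versican gene, from 5311 ± 850 to 7899 ± 755 (0.58 ± 0.13). The MMP inducer Bsg changed by -0.13 and did not pass. These lists were chosen with earlier results of these data known.

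Replicate 2 stood apart for many members. In both groups it was the highest library for 22 of the 64 (34.4% against 22.7% of all genes) and the lowest for 16 (25% against 21.1%). Among protein-coding genes these shares were 26.8% and 23.5%. It was the highest for 9 MMPs and 10 ADAMTS genes, among them Mmp8, Mmp9, Mmp10, Mmp12, Mmp13, Adamts4, Adamts9 and Adamts12. For 3 of the 4 TIMPs, Timp1, Timp2 and Timp3, and for Mmp2, it was the lowest. The endothelial marker sum was 43744 in control replicate 2 and 42925 in stimulated replicate 2, against 15911 or less elsewhere. The epithelial marker sum was 31380 and 33464, against 16605 or less, and 4 of its 7 genes were highest in replicate 2 of both groups. Most of it was Sftpc, at 19538 in control replicate 2 and 29469 in stimulated replicate 2. Scgb1a1 went the other way in stimulated libraries, lowest in replicate 2 at 112, and Cdh1 and Foxj1 were highest in stimulated replicate 3. The part of these other cells in the members' values was not tested. Without both replicate 2 libraries, 17 members passed limma and 12 of the 14 were among them, with Adam10 and Adamtsl3 lost and Adamts12, Adamtsl4, Mmp2, Mmp11 and Mmp12 gained.

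**Figure D5:**
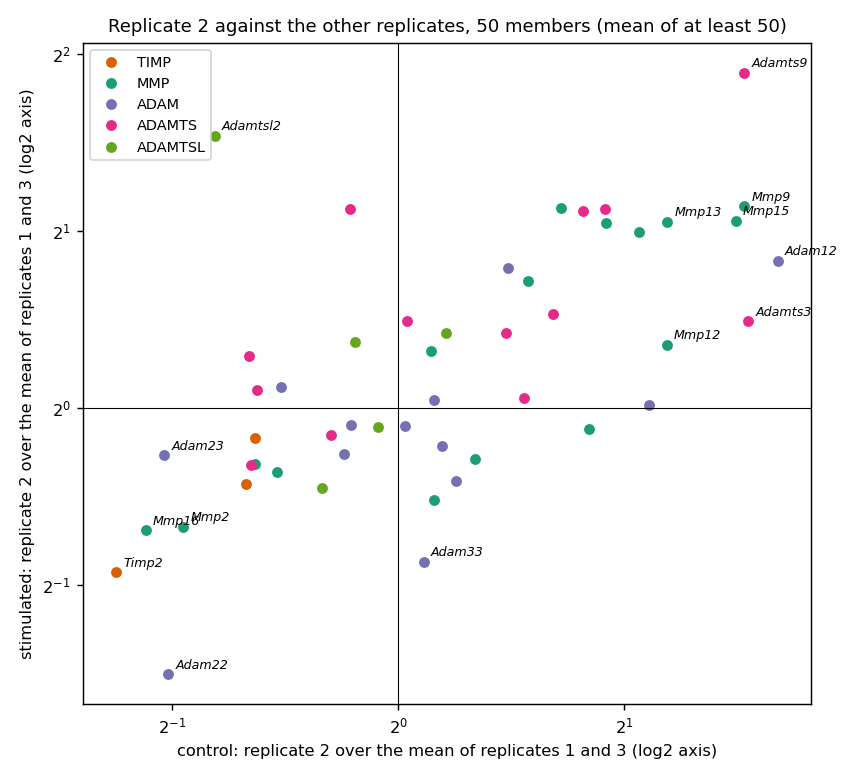
For the 50 members with a mean of at least 50, the value of replicate 2 over the mean of replicates 1 and 3 (1 added to each), in controls (horizontal) and stimulated libraries (vertical), both on log2 axes with lines at a ratio of 1. Mmp9, Mmp15, Adam12 and Adamts9 lie at the upper right, high in replicate 2 of both groups, Timp2, Mmp2 and Adam22 at the lower left, and Adamtsl2 at the upper left.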

How the data were processed

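Whole-transcriptome libraries were made with a stranded total RNA kit, per the labels' protocols. The submitters' processing notes list DESeq2 1.18.1, featureCounts 1.6.3, STAR 2.6.1d, Trimmomatic 0.38 and FastQC with the builds mm10, hg38 and GRCh38. If the counting used strand is not given in the sources used here. Each deposited value is a score: whole numbers are skipped in 4 of 6 columns, the mark of reads scaled by a library factor and then rounded by the authors. Such values are not raw counts, so the count model the design allowed for was not used. The factors, estimated from which whole numbers occur, run from 0.584 to 1.32 and give the read totals.

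Values were tested with limma 3.58.1 (R 4.3.3; intensity trend) on log2(value + 1), for rows averaging 1 or more (42 left out, all 64 members kept), with treatment as the only term, 3 libraries per group and 4 residual degrees of freedom. The fit with the replicate block has more terms and so fewer residual degrees of freedom. A change on the log2(value + 1) scale understates that of low genes. Scaling alternatives were equal totals, upper-quartile, trimmed-mean (TMM) and relative log expression (RLE) factors. Others were the pseudocount, the filter, the replicate block and leaving out libraries. The fit was also run on simulated counts with the same dispersion for every gene and no replicate pattern. That run cannot show how the fit behaves with the spread between these replicates. Identifiers of 21747 rows matched GENCODE M21 (mm10). Lengths are the union of annotated exons, so levels per kb are approximate. Deviations from the group means over 13185 genes gave a correlation of 0.747 for number 1, 0.741 for number 2 and 0.218 for number 3. The numbers were taken as pairs because all were above 0.1, a reading from the data since no label explains them. This cut does not separate pair 3 from a mismatch, as control 3 with stimulated 1 gave 0.287. Calls made with the block rest on this pairing. Named in full are all members that passed, the 4 TIMPs and the 3 of highest level per length in each subfamily, plus those the block added; other genes were named after their values were seen. Members and lists were chosen with earlier results of these data known. One gene of the inhibitor list is not reported here, so that list is given without its count.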

Additional observations from a re-analysis of the deposited data

How the results depend on the processing

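Without the replicate block, calls were sensitive to single libraries. Leaving out 1 library gave 3 to 8 members higher and 3 to 7 lower (8 and 6 with all), with 0 to 2 MMPs, 1 to 4 ADAMs, 4 to 8 ADAMTS and ADAMTSL genes and 1 to 2 TIMPs called, and 659 to 1583 genes higher and 258 to 801 lower over the table. Without stimulated replicate 3, the deepest library, 6 of the 14 members passed. Timp1, Adam11, Adamts5, Adamts6, Adamts10 and Adamts15 passed in each of these fits. With the replicate block, 13 members were higher and 11 lower, with 6 MMPs and 6 ADAMs called, and 3232 genes higher and 2605 lower. No library was left out of the fit with the block, so how its calls depend on single libraries was not tested. With equal library totals 1135 genes were higher and 2265 lower, and the median change of all genes was -0.20 against -0.03 as deposited (-0.11 with upper-quartile factors). Equal totals together with the replicate block called 17 members lower, 7 MMPs, 5 ADAMs and 4916 genes lower. Without both replicate 2 libraries 4 MMPs passed. Trimmed-mean and relative log expression factors, other pseudocounts and other filters left the same 14 members called.

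Small changes that did not pass turned sign. With equal library totals Adamts2 was at -0.11 and Mmp14 at -0.12, with or without the block. With upper-quartile factors they were at -0.016 and -0.0245, and without both replicate 2 libraries at -0.09 and -0.0054. Over fits leaving out 1 library, Adamts2 ranged from -0.10 to 0.19, Mmp14 from -0.0542 to 0.15, Timp2 from -0.63 to 0.0901 and Timp4 from -0.35 to 0.12. The summed level, stimulated over control, was 0.949 for MMPs (0.841 with equal totals, 0.899 with upper-quartile factors, 0.897 to 0.98 leaving out 1 library), 1.27 for ADAMs (1.12 with equal totals) and 0.977 for ADAMTSL genes (0.867 with equal totals, 0.878 without both replicate 2 libraries). For TIMPs it was 1.70, and 1.42 to 1.90 leaving out 1 library. The causes were not tested.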
